A study of Mus musculus with 6 samples.

Results

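Integrins and the other adhesion molecules that hold a T cell to its surroundings are described here in D10 cells cultured in the cold, through 9 genes taken by symbol from the 41079 genes listed: Itgal, Itgb2, Itga4, Itgb1, Itgb7, Itgae, Selplg, Cd44 and Icam1. The rule uses their symbols and no measured value, and each was found as 1 row of the deposited expression table. Poly(A)+ RNA was sequenced from D10 (D10.G4.1), 1 cloned mouse CD4+ helper T cell line kept in medium with fetal bovine serum, antibiotics and IL-2. Cold-acclimated T cells had spent 24 h at 26°C, and non-acclimated T cells were cultured at 37°C. There were 3 replicates of each, which the methods describe as independently prepared. The comparison asks which transcripts differ after culture in the cold. Values are TPM, a measure of transcript abundance in which counts are divided by gene length and each library is brought to the same total, so levels can be compared between genes.

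An integrin is a pair of an alpha and a beta chain that both cross the membrane. Most of the receptor waits in a bent, weakly binding form until signals inside the cell, passed on by Rap1, talin and kindlin, straighten it. LFA-1 (Itgal with Itgb2) binds ICAM proteins on partner cells, VLA-4 (Itga4 with Itgb1) binds VCAM-1 and fibronectin, Itga4 with Itgb7 binds MAdCAM-1 of gut vessels, and Itgae with Itgb7 binds E-cadherin of epithelium. Selplg encodes PSGL-1, a sugar-bearing ligand of selectins on which leukocytes roll, Cd44 encodes a receptor of the matrix sugar hyaluronan, and Icam1 encodes a ligand of LFA-1 that T cells also carry.

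The libraries held between 16899628 and 31290854 reads, recovered from the steps of the TPM values. T cell identity was checked first, because it differed between replicates. Of 14 T cell marker genes, 12 had a mean TPM of at least 1, and their summed level was 4018 to 5558 TPM in non-acclimated and 4830 to 5801 TPM in cold-acclimated libraries. Cd3e, a chain of the T cell receptor complex, stood between 476 and 874 TPM in all 6 libraries. Cd4, in contrast, stood at 1.09, 0.0351 and 309.7 TPM at 37°C and at 1.299, 0.352 and 328 TPM at 26°C, so it was near 0 in replicates 1 and 2 of both conditions, against the label. Trac, the constant part of the receptor's alpha chain, was at 15.0 and 12.8 TPM in replicate 2 and between 128.5 and 206.9 TPM in the other libraries. Summed markers of B cells, macrophages and monocytes, CD8 T and NK cells, and stromal cells reached at most 3.62, 21.2, 9.38 and 4.54 TPM in any library. Those of erythroid cells reached 485.7 TPM, nearly all of it from the hemoglobin gene Hba-a1, while the defining marker Hbb-bs was at 0. The libraries therefore differ by replicate number as well as by temperature, and each gene is given library by library in the order of replicates 1, 2 and 3.

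Genes were tested where their mean reached 1 TPM. Across these 12227 genes the median log2 fold change of cold-acclimated against non-acclimated cells was -0.34, so a gene with a change near this value moved like the typical gene. Median of ratios scaling, which centres every library on the typical gene, moved that median to 0.02. Of the 9 genes, 8 were tested and Itgb1 was left out, as it is listed at 0. A call by limma needed an adjusted p below 0.05 together with a log2 fold change of 1 or more in either direction. By this measure 0 of the 8 were called upregulated and 0 downregulated, beside 2.63% and 16.0% of all tested genes. At an unadjusted p under 0.05, 2 of the 8 passed, Icam1 and Itga4, beside 37.7% of all genes. Icam1 did not overlap between the conditions and was higher in the cold, as 9.69% of all genes were, and Itga4 did not overlap and was lower, as 31.4% were. By adjusted p alone 0 members were higher and 0 lower, beside 3.3% and 17.4% of all genes. The median log2 fold change of the 8 was -0.15, and 6 of them lay above the median of all genes. With the replicate number as a block 1 member was called upregulated (Cd44) and 0 downregulated, beside 3.75% and 21.9% of all genes, and by adjusted p alone 2 were higher and 0 lower, beside 6.89% and 29.0%. With median of ratios scaling 1 was called upregulated (Icam1) and 0 downregulated, beside 6.56% and 8.79%, and with voom on the recovered reads the same counts stood beside 6.27% and 9.18%, and with quantile normalization beside 5.98% and 6.26%. With the block and that scaling together both genes were called upregulated, beside 8.88% (12.6% of all genes were downregulated). In the bulk RNA, fewer cells that carry a transcript and less of it per cell cannot be told apart.

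**Figure D1:**
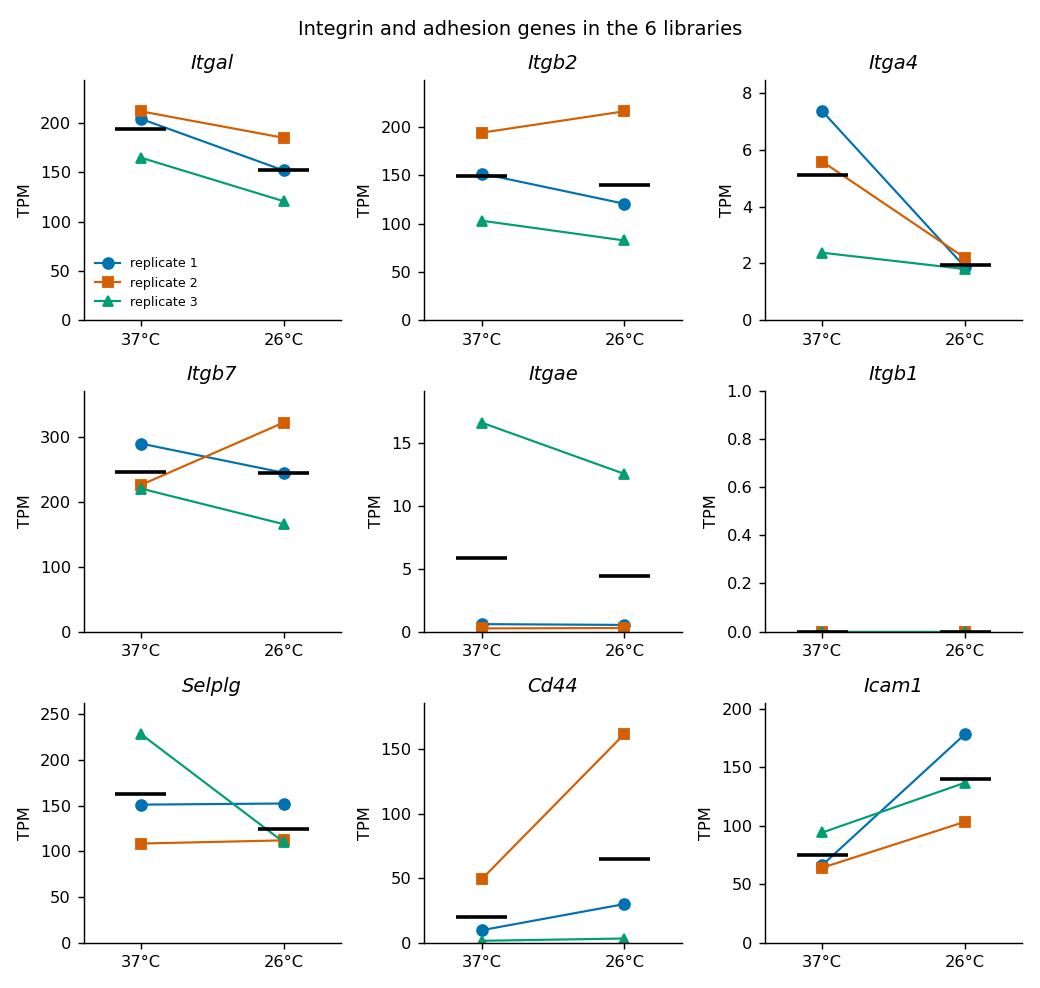
TPM (vertical axis, linear from 0, a scale of its own for each gene) of the 9 genes in the 3 non-acclimated (37°C) and 3 cold-acclimated (26°C) libraries. Lines join libraries with the same replicate number and black bars are condition means. Icam1 and Cd44 climb within every replicate, Itga4 and Itgal descend within every replicate, Itgae is above 10 TPM in replicate 3 alone, and Itgb1 lies at 0.

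Icam1 (ENSMUSG00000037405, GRCm39 chr9:20927236-20940110, plus strand) and Cd44 (ENSMUSG00000005087, chr2:102641486-102732014, minus strand) were the members with a higher value at 26°C in each of 3 replicates, a direction shared by 18.2% of all tested genes. The 250 bases before their annotated starts are shown for this reason. They come from RefSeq's promoter table, made on GRCm38.p6, and were placed on GRCm39 by an exact match. The Icam1 stretch lies at chr9:20926986-20927235 on the plus strand and the Cd44 stretch at chr2:102732011-102732260 on the minus strand, where its last 4 bases fall inside the gene as deposited. Capitals mark the letters of a kappaB element (GGAAATTCC) and of a GC box (GGGCGG), searched on both strands.
Icam1: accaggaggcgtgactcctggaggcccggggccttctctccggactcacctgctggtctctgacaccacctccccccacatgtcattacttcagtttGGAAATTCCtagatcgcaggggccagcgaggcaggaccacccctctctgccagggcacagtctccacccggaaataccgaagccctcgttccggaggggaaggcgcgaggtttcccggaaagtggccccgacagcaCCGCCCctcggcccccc
Cd44: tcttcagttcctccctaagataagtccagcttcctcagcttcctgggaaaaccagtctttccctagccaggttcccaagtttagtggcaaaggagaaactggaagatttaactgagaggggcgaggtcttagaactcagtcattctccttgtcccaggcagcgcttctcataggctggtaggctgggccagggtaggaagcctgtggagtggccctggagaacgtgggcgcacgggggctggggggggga
The Icam1 stretch holds a kappaB match that begins 153 bases before the start, letters found in 0.286% of 32851 mouse promoters. It also holds a GC box on the other strand that begins 17 bases before the start, found in 32.7%. Only the exact strings given above were searched, so 0.286% is the share of that string and not of kappaB elements in general. How that string was chosen among kappaB elements is not recorded, so 0.286% does not measure how unlikely a match in Icam1 was. The Cd44 stretch holds a match to neither, which says only that these letters are not in this window. Among the 9 genes, entries of the table were matched for 5, namely Icam1, Cd44, Itga4, Itgb1 and Itgb7, and not for Itgal, Itgb2, Itgae and Selplg. A GC box also began 151 bases before the annotated start of Itgb1. In the Itga4 stretch a GC box began 114 bases before the start used by RefSeq's promoter table. The Itgb7 stretch held a match to neither. The stretches of Itga4 (chr2:79085520-79085769) and Itgb7 (chr15:102140371-102140620) lie wholly inside the genes as deposited. For both, the letters are therefore not those before the deposited start. Whether any of these letters bears on the values was not tested.

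Icam1, the LFA-1 ligand, stood at 66.5, 64.3 and 94.4 TPM in non-acclimated and at 179, 103.6 and 137 TPM in cold-acclimated cells. Every cold-acclimated library was above every non-acclimated one. Its mean was 75.0 ± 16.8 TPM (SD, n = 3) at 37°C and 139.7 ± 37.6 TPM (SD, n = 3) at 26°C, and within replicates it was 2.69, 1.61 and 1.45 times higher in the cold. The log2 fold change was 0.88 (SE 0.28), 1.21 above the median of all genes, with an adjusted p of 0.0635 by limma, so the gene was not called. With the replicate number as a block the adjusted p was 0.0298, at a fold change still under the threshold. With median of ratios scaling the log2 fold change was 1.27 (adjusted p = 0.0257 by limma) and the gene was called. Each library held between 1175 and 3983 reads of Icam1.

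Cd44, the hyaluronan receptor, stood at 9.75, 49.2 and 1.56 TPM in non-acclimated and at 30.1, 162 and 3.34 TPM in cold-acclimated cells. The conditions overlapped widely, because replicate 2 was high and replicate 3 low at both temperatures. Between the highest and the lowest replicate Cd44 differed 31.5-fold at 37°C and 48.5-fold at 26°C, and the replicate number held 88.7% of the sum of squares of its log2 values against 10.4% for temperature. Within replicates, cold-acclimated cells had 3.08, 3.29 and 2.14 times the level of their non-acclimated partner. Without the replicate term, the log2 fold change of 1.33 had an SE of 1.44 and an adjusted p of 0.544 by limma. With the replicate number as a block the same fold change had an SE of 0.26 and an adjusted p of 0.0123, and Cd44 was called upregulated. The estimate without the block was 0.06 when cold-acclimated replicate 2 was left out and 2.67 when it was replicate 3 of that condition. Recovered reads ran from 108 in non-acclimated replicate 3 to 8378 in cold-acclimated replicate 2, so the replicate with the fewest reads also had the smallest fold. Cd4, near 0 in replicates 1 and 2, was high in replicate 3, where Cd44 was lowest, and the part of this difference between cultures in the result was not tested.

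**Figure D2:**
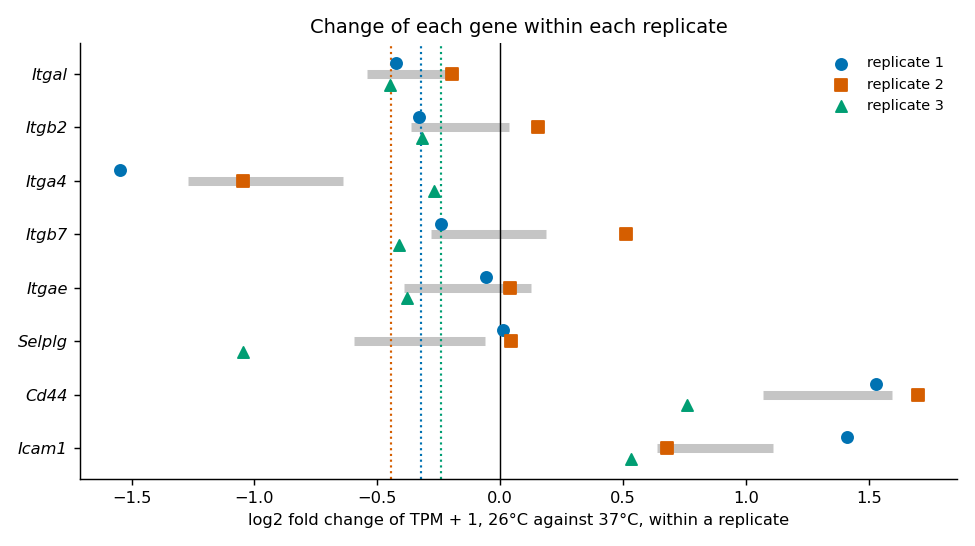
Log2 fold change of TPM + 1 at 26°C against 37°C (horizontal axis) within replicates 1 to 3 for the 8 tested genes. Grey bars are the mean ± SE of the fit with the replicate as a block, and dotted lines in the replicates' colours are the medians of all tested genes, at -0.32, -0.44 and -0.24. Cd44 (1.53, 1.70, 0.76) and Icam1 (1.41, 0.68, 0.53) lie to the right of 0 in every replicate, and Itga4 (-1.55, -1.05, -0.27) and Itgal (-0.43, -0.20, -0.45) to the left.

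Itga4 (ENSMUSG00000027009, chr2:79084767-79163458, plus strand), the alpha chain of VLA-4 and of the MAdCAM-1 receptor, stood at 7.36, 5.59 and 2.38 TPM in non-acclimated and at 1.86, 2.19 and 1.80 TPM in cold-acclimated cells. All 3 cold-acclimated libraries were below all 3 non-acclimated ones, and the lowest non-acclimated library, replicate 3, was close to them. Its mean was 5.11 ± 2.53 TPM (SD, n = 3) at 37°C and 1.95 ± 0.21 TPM (SD, n = 3) at 26°C, and within replicates it was 3.95, 2.56 and 1.32 times lower in the cold. The log2 fold change was -0.95 (SE 0.38), or -0.62 relative to the median of all genes, with an adjusted p of 0.111 by limma and of 0.0538 with the replicate as a block, so it was not called in either fit. Without non-acclimated replicate 3 the log2 fold change was -1.33 and the adjusted p 0.0296 by limma, a call. With single libraries left out it came as near 0 as -0.68. It was -0.66 with median of ratios scaling (adjusted p = 0.253 by limma), -0.34 with quantile normalization (0.560) and -0.78 with voom (0.277), and not called. Between 213 and 667 reads per library stand behind these values, the fewest among the tested members with the exceptions of Itgae and of some Cd44 libraries.

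Itgal (ENSMUSG00000030830, chr7:126895404-126934309, plus strand) encodes CD11a, the alpha chain of LFA-1. It stood at 204, 212 and 165 TPM in non-acclimated and at 152, 185 and 121 TPM in cold-acclimated cells. The conditions overlapped, and replicate 3 was the lowest and replicate 2 the highest at both temperatures. The value was lower in the cold within all 3 replicates, as for 47.9% of all genes. The log2 fold change was -0.36 (SE 0.24, adjusted p = 0.330 by limma), or -0.02 relative to the median of all genes, and it was 0.04 with median of ratios scaling. Itgal held between 63.1% and 80.0% of the summed TPM of the 18 alpha chain genes in every library, of which 9 had a mean of at least 1 TPM.

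Itgb2 (ENSMUSG00000000290, chr10:77366164-77401542, plus strand) encodes CD18, the beta chain that pairs with Itgal. Its values were 152, 194 and 103 TPM at 37°C and 121, 216 and 82.6 TPM at 26°C. Replicate 2 was highest and replicate 3 lowest in both conditions, and the replicate number held 91.8% of the sum of squares against 2.83% for temperature. The log2 fold change was -0.16 (SE 0.40, adjusted p = 0.804 by limma) and 0.23 with median of ratios scaling. The ratio of Itgal to Itgb2, which no scaling between libraries can alter, was 1.35, 1.09 and 1.599 in non-acclimated and 1.26, 0.855 and 1.46 in cold-acclimated cells. It differed by -0.19 on the log2 scale, with -0.09, -0.35 and -0.13 within the replicates, and by an exact two-sided permutation test p was 0.6 (0.9 adjusted over the 3 ratios computed), where 3 against 3 libraries cannot give less than 0.1.

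Itgb7 (ENSMUSG00000001281, chr15:102124429-102141840, minus strand), the beta chain shared by the MAdCAM-1 and E-cadherin receptors, had the highest mean of the 9 genes in both conditions. It stood at 290.5, 226 and 221 TPM in non-acclimated and at 245, 323 and 166 TPM in cold-acclimated cells. The cold-acclimated libraries spread on both sides of the non-acclimated ones, with replicate 2 higher and replicates 1 and 3 lower than their partners. The log2 fold change was -0.05 (SE 0.29, adjusted p = 0.926 by limma), 0.29 above the median of all genes, and 0.35 with median of ratios scaling (adjusted p = 0.470 by limma).

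Itgae (ENSMUSG00000005947, chr11:72981396-73038272, plus strand) encodes CD103, which retains T cells in epithelium. It stood at 0.587, 0.245 and 16.6 TPM in non-acclimated and at 0.523, 0.280 and 12.5 TPM in cold-acclimated cells. Replicate 3 stood apart at both temperatures, with 794 and 508 reads against between 8 and 18 in the other 4 libraries. The highest replicate exceeded the lowest 67.8-fold at 37°C and 44.8-fold at 26°C, and the replicate number held 99.5% of the sum of squares. Its log2 fold change was -0.13 (SE 1.22, adjusted p = 0.951 by limma), and 0.04 with median of ratios scaling. The replicate with the high Itgae was the one in which Cd4 was high.

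The level of Itga4 relative to Itgb7 was 0.0253, 0.0247 and 0.0108 in non-acclimated and 0.00759, 0.00677 and 0.0109 in cold-acclimated cells. It was lower in the cold in replicates 1 and 2 (log2 differences of -1.74 and -1.87) and nearly the same in replicate 3 (0.01). The mean difference of -1.20 had p = 0.2 by the exact two-sided permutation test (0.6 adjusted). For Itgae relative to Itgb7 the difference was -0.08, with p = 1.0 by the same exact test.

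Itgb1 (ENSMUSG00000025809, chr8:129412135-129460060, plus strand), the beta chain of VLA-4 and of many matrix receptors, is listed at 0 in all 6 libraries, with 0 recovered reads in each. No fold change or ratio to Itga4 could be computed. With its exons of 5970 bases in GENCODE, 3 reads would have been 0.0418 to 0.0733 TPM, a limit that covers counting error only. In a check of 150 genes of the proteasome, RNA polymerases, mitochondrial ribosome and CCT chaperonin, which nearly every cell uses, 2 were listed at 0, Psma8 and Psmb11, both known for expression in particular tissues. This check covers those genes as a group and cannot tell why any single gene is at 0. Of the T cell markers, 2 named after their values were seen were near 0 throughout. Cd5 was above 0 only in cold-acclimated replicate 3 (0.0454 TPM) and Trbc1 only in cold-acclimated replicate 2 (0.214 TPM). Why Itgb1 is listed at 0 was not tested.

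The beta chain genes differed in which of them led. Of 8 beta chains, 4 had a mean of at least 1 TPM and 3 were listed at 0 in every library, Itgb1, Itgb6 and Itgb8. Itgb7 held 32.9%, 24.4% and 30.6% of the summed beta chain TPM in non-acclimated and 50.3%, 49.9% and 34.5% in cold-acclimated cells. Itgb2 held 17.2%, 20.9% and 14.3% and then 24.7%, 33.4% and 17.2%. Itgb3, the partner of Itgav in the vitronectin receptor, held 45.7%, 51.5% and 53.1% and then 21.5%, 15.0% and 47.2%. Within replicates 1 and 2 the leading beta chain was thus Itgb3 at 37°C and Itgb7 at 26°C, while in replicate 3 Itgb3 led at both. The sum itself was 883, 929.9 and 722.9 TPM at 37°C and 487.8, 647.7 and 481 TPM at 26°C, so a share of Itgb7 or Itgb2 could be larger without a higher level.

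**Figure D3:**
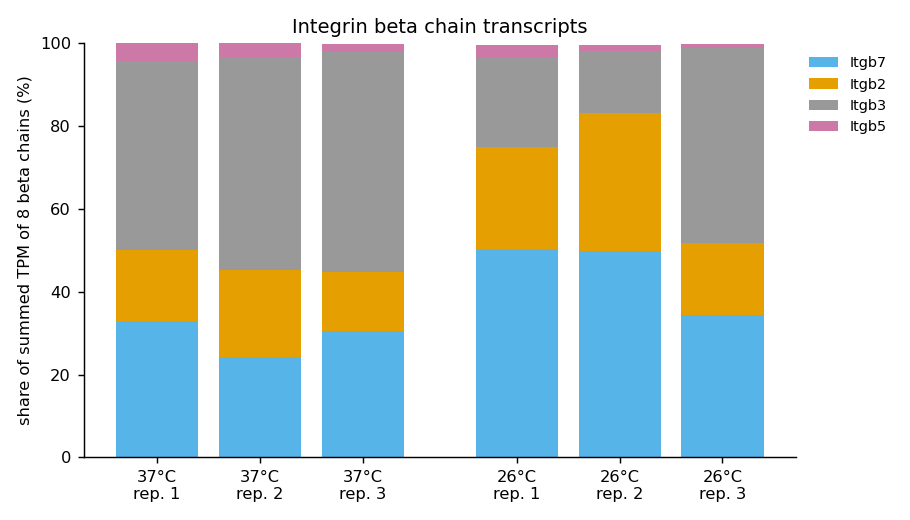
Share of the summed TPM of the 8 integrin beta chain genes (vertical axis, %) in each library, with Itgb1, Itgb6 and Itgb8 at 0 and Itgb4 too small to see. In replicates 1 and 2 the part of Itgb3 goes from 45.7% and 51.5% at 37°C to 21.5% and 15.0% at 26°C, and in replicate 3 it is 53.1% and 47.2%.

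Selplg (ENSMUSG00000048163, chr5:113955859-113970576, minus strand), the gene of PSGL-1, stood at 151, 109 and 229 TPM in non-acclimated and at 152, 112 and 110.1 TPM in cold-acclimated cells. The values of replicates 1 and 2 were nearly equal at the 2 temperatures, with log2 fold changes of 0.01 and 0.05, and replicate 3 alone was lower in the cold, at -1.05. The log2 fold change over all libraries was -0.33 (SE 0.31, adjusted p = 0.488 by limma), and 0.07 with median of ratios scaling. With single libraries left out it lay between -0.59 and -0.05.

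In order of mean level, non-acclimated cells had Itgb7 (246 TPM), Itgal (194 TPM), Selplg (163 TPM), Itgb2 (149.8 TPM), Icam1 (75.0 TPM), Cd44 (20.2 TPM), Itgae (5.81 TPM), Itga4 (5.11 TPM) and Itgb1. Neighbours in this order whose libraries did not overlap were Itgb7 and Itgal, Itgb2 and Icam1, Icam1 and Cd44, and Itga4 and Itgb1. In cold-acclimated cells Icam1, at 139.7 TPM, stood beside Itgb2, at 139.9 TPM, and before Selplg, at 125 TPM. There, neighbours overlapped throughout the order except Itga4 and Itgb1.

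The profile over the 6 libraries was compared with that of other tested genes with a mean of at least 5 TPM, by Pearson's r of log2(TPM + 1), as a description in which the points share cultures and depth. The closest gene was Rhbdd2 for Itgal (r = 0.987), Tnrc6a for Itgb2 (r = 0.987), Isoc2b for Itga4 (r = 0.996) and C8g for Itgb7 (r = 0.990). It was Kir3dl1 for Itgae (r = 0.9995), Nol12 for Selplg (r = 0.965), Rab6a for Cd44 (r = 0.988) and Thyn1 for Icam1 (r = 0.982). Among the members themselves, Itgb2 was most like Cd44 (r = 0.861) and Itgal most like Itgb2 (r = 0.845). With 6 libraries such values are common: between 15 genes, for Selplg, and 429 genes, for Itga4, had an r above 0.9.

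Genes that work with these receptors were taken from 8 lists of 144 genes, of which 86 were tested and 23 were listed at 0. Among the 86, 0 were called upregulated and 10 downregulated, beside 2.63% and 16.0% of all tested genes, and 1 more, Cd48, chosen after its values were seen, was lower by adjusted p alone. Their median log2 fold change was -0.26, near that of all genes. With the replicate as a block 19 of the 86 were called downregulated, beside 21.9% of all genes, and 0 upregulated. With the block and median of ratios scaling together 11 were downregulated, beside 12.6%, and 2 upregulated, beside 8.88%. With median of ratios scaling 6 were downregulated, beside 8.79%, and 2 upregulated, beside 6.56%. These 2 were Rapgef1 and Rassf5, named after their values were seen, which act on and with Rap1.

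The other integrin chains had the lowest median of the 8 lists, at -1.10 over 8 tested genes of 20, and at -0.80 with median of ratios scaling. Itgb3 fell from 403.5, 479 and 384 TPM to 105, 97.0 and 227 TPM, with no overlap between the conditions, a log2 fold change of -1.66 (SE 0.35) and an adjusted p of 0.0193 by limma. Itga6, an alpha chain of laminin receptors, also fell, from 21.1, 18.4 and 11.6 TPM to 4.83, 4.57 and 6.72 TPM (log2 fold change -1.47, adjusted p = 0.0188 by limma). Itgav, the partner of Itgb3, had a log2 fold change of 0.14 and was not called, nor was Itgb5 at -1.35 (adjusted p = 0.077 by limma). With the replicate as a block 4 genes of the list were called downregulated, the further ones being Itgb5 (adjusted p = 0.00816 by limma) and Itga2, named after its values were seen (log2 fold change -1.39, adjusted p = 0.0203 by limma). Itgb5 was also called without non-acclimated replicate 3, at -1.74.

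Of the ligands of integrins and selectins, 4 of 16 were tested and Spn was called downregulated. Spn encodes CD43, an abundant mucin of the T cell surface, and its log2 fold change was -1.53 (adjusted p = 0.0329 by limma). Icam2 and Icam4, which like Icam1 bind LFA-1, had log2 fold changes of -0.74 and 0.34 and were not called. In the enzymes that place sugars on selectin ligands such as PSGL-1, C1galt1, which makes the core of O-linked chains, was called downregulated at -2.17 (adjusted p = 0.0075 by limma), the 1 call among 8 tested genes of 13. B4galt1 and Galnt1 stood at -0.87 and -0.67 and were not called. Without cold-acclimated replicate 3 B4galt1 was called at -1.15 (adjusted p = 0.0472 by limma), and with other single libraries left out it reached -0.48. With the replicate as a block 2 genes of this list were called, the further one being the sialyltransferase St3gal3, named after its values were seen, at -1.02 (adjusted p = 0.01998 by limma).

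Integrin activation had 21 tested genes of 25, with a median of -0.34 and 2 calls. Sipa1, which switches Rap1 off, was called downregulated at -2.28 (adjusted p = 0.0087 by limma), as was Flna, a filamin that competes with talin for beta chain tails, at -1.32 (adjusted p = 0.0402 by limma). The most abundant tested genes of the list were not called: Rap1b at 0.39, the exchange factor Rasgrp1 at -0.67 and the adaptor Fyb1 at -0.71. With the replicate as a block 6 genes of this list were called downregulated, and the 4 further ones are named after their values were seen. Tln1, the talin of leukocytes, stood at -1.11 (adjusted p = 0.0161 by limma with the block and 0.0729 without) and Fermt3, their kindlin, at -1.23 (0.0162 and 0.0801). Rasgrp2, an exchange factor of Rap1, stood at -1.57 (adjusted p = 0.00722 by limma with the block and 0.158 without) and Cyth1, a cytohesin that binds the Itgb2 tail, at -1.84 (0.00900 and 0.0527). In adhesion complex signalling 2 of 17 tested genes were called downregulated, the adaptor Crk at -1.76 (adjusted p = 0.0085 by limma) and the kinase Ptk2b (Pyk2) at -1.07 (adjusted p = 0.0188 by limma). Parvg, Actn4 and Vasp, the most abundant there, had log2 fold changes of -0.04, -0.17 and -0.23, each of which turned positive with median of ratios scaling.

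Proteins that link the tails of CD44 and PSGL-1 to actin, or regulate those that do, had 8 tested genes of 11. Nf2 (merlin) was called downregulated at -1.48 (adjusted p = 0.0195 by limma), while Msn (moesin), Arhgdia and Arhgdib, between 350.1 and 1248 TPM in every library, had log2 fold changes of -0.02, 0.07 and -0.20, which changed sign for Msn and Arhgdib with median of ratios scaling and for Arhgdia with quantile normalization. Among proteases that shed adhesion molecules and genes of hyaluronan handling, 7 of 14 were tested. Adam10, a sheddase that can cut CD44, was called downregulated at -1.54 (adjusted p = 0.0328 by limma), while Rhbdf2 and the hyaluronan receptor Hmmr were not, at 0.20 and -1.67. Hmmr went in opposite directions, with log2 fold changes of -2.45, -3.14 and 0.58 within replicates 1, 2 and 3. Without cold-acclimated replicate 3 it was called at -2.49 (adjusted p = 0.00573 by limma), and with single libraries left out it came as near 0 as -1.07. Hyal2, a hyaluronidase named after its values were seen, was called downregulated with the replicate as a block, at -1.31 (adjusted p = 0.04995 by limma, and 0.0667 without the block). Its log2 fold changes within replicates 1, 2 and 3 were -0.06, -1.54 and -2.34. Of the tetraspanins and other adhesion receptors 13 of 20 were tested and 0 were called, and the most abundant, Cd53, Cd96 and Cd82, had log2 fold changes of 0.56, 0.39 and 0.25. With the replicate as a block 1 was called downregulated, Cd151, named after its values were seen, at -1.17 (adjusted p = 0.0106 by limma, and 0.0912 without the block). The calls of Spn, Flna, Ptk2b and Adam10 were lost with median of ratios scaling, where their adjusted p lay between 0.0729 and 0.0925 by limma. Spn and Adam10 (adjusted p = 0.0745 by limma) also lost their calls without a filter on low values. Of the genes called with the block but not without it, Itga2, Rasgrp2 and Cyth1 kept their call with that scaling added. Itgb5 (-0.98), St3gal3 (-0.69), Tln1 (-0.71), Fermt3 (-0.83), Hyal2 (-0.93) and Cd151 (-0.79) did not, as their log2 fold changes fell under the threshold. Of the 10 called genes, Sipa1, Crk and C1galt1 kept their call with any single library left out. The calls of Itgb3, Itga6, Spn, Flna, Ptk2b, Nf2 and Adam10 were lost without replicate 1 or replicate 2 of either condition, with adjusted p between 0.0533 and 0.131 by limma. Flna also lost its call without non-acclimated replicate 3, and Ptk2b without cold-acclimated replicate 3, where its log2 fold change came to -0.997.

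**Figure D4:**
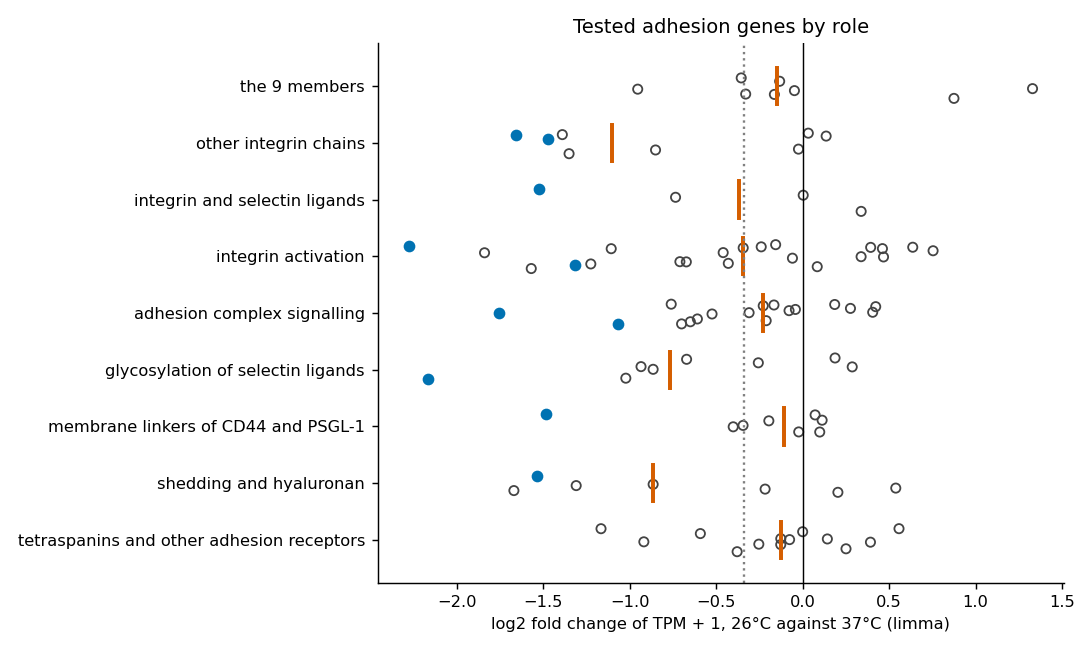
Log2 fold change of TPM + 1 at 26°C against 37°C (horizontal axis) for the tested genes of the 9 members and of each list, 1 point per gene. Filled points are genes called downregulated, orange bars are medians, and the dotted line is the median of all tested genes at -0.34. The other integrin chains have a median of -1.10 and the 8 tested members one of -0.15.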

How the data were processed

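The deposited values are TPM per gene for 6 libraries. According to the methods and the submitters' processing notes, the authors made strand-specific paired-end libraries, checked and trimmed reads with FastQC 0.11.7 and Trimmomatic 0.38, aligned them to GRCm39 with HISAT2 2.1.0 and counted them with featureCounts 1.6.3. The annotation release, strand setting and gene lengths are not given in any source used here. Without the strand setting, reads of overlapping antisense genes may not be separated.

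The temperatures were compared with limma 3.58.1 (R 4.3.3) by a fit with a mean-variance trend to log2(TPM + 1). It covered 12227 genes whose mean reached 1 TPM and held no replicate term. Fold changes on this scale understate those of genes near 1 TPM. A call required a Benjamini-Hochberg adjusted p below 0.05 over all tested genes together with a log2 fold change of 1 or more in either direction. Ratios of chains were compared by exact two-sided permutation. Remaining steps used Python 3.11.15 with scipy 1.17.1, pandas 2.3.3 and numpy 2.4.6, and matplotlib 3.10.9 for the plots. The fit was tested on simulated data that held no difference between replicate numbers. That setting is unlike these libraries, so the test does not show how the fit performs on them.

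Read numbers were recovered from the step that a gene's values share: for 100% of 21195 genes above 0 they were whole within 1e-06 reads. The reads were used for depth and for voom in limma as an alternative. Voom called 6.27% of tested genes upregulated (767 genes) and 9.18% downregulated (1122 genes).

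Whether replicate numbers pair the libraries was checked from each library's deviation from its condition's mean. The correlation across genes was 0.48, 0.50 and 0.51 for the same number and between -0.41 and 0.02 for different ones, so same-numbered libraries deviate together. The fit without a replicate term stayed the one reported first, as the study's methods state none. The fit with the replicate as a block is given where it changes a call. Those methods name DESeq2 with median of ratios normalization, which the fit reported first does not use. Its calls therefore need not be those of the study. Extraction batches named old and new in the labels are assigned to no library there and were not analysed here. The labels describe 1 cloned line, but Cd4, Trac and Itgae differ between replicate numbers at both temperatures, so whether all replicates are cultures of the same cells was not tested. The SDs, and the p-values of tests without the block, measure the spread between these libraries, that difference included. The p-values with the block leave out the mean difference between replicate numbers.

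The members, the lists and the rule for named genes were chosen with earlier results of these data known. The rule named all members, the 3 most abundant tested genes and up to 5 called genes of each list, 3 T cell markers, and the gene most like each member. Alternatives were another pseudocount (0.1), no filter or a mean of at least 5 TPM, median of ratios scaling, quantile normalization, the replicate block, voom, and leaving out each library. The block with median of ratios scaling was added after seeing the data. The 9 members matched 9 rows, and of the genes in the lists 1, Fyb, was matched by an older symbol to Fyb1.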

Additional observations from a re-analysis of the deposited data

How the results depend on the processing

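Over the alternatives run on the 8 tested members, 81 of 111 values kept their direction and their side of the threshold, 7 moved past it and 23 changed sign. The members called upregulated were 1 with median of ratios scaling, 1 with quantile normalization and 1 with voom (Icam1 each time), 1 with the replicate block (Cd44) and 2 with the block and median of ratios scaling together. The members higher by adjusted p alone were 1, 1, 1, 2 and 2 in the same order. Among these alternatives the share of all genes by that measure is given only for the replicate block, at 6.89%. Members called downregulated, or lower by adjusted p alone, ranged from 0 to 1 when single libraries were left out. The 1 was Itga4 without non-acclimated replicate 3, and no share of all genes is given for that fit. The members' median log2 fold change was 0.15 with median of ratios scaling, and 7 of the 8 were then above 0. Icam1, at 0.88, had log2 fold changes between 0.68 and 1.07 and adjusted p between 0.0530 and 0.202 by limma when single libraries were left out, and 1.03 with quantile normalization (adjusted p = 0.0445) and 1.28 with voom (adjusted p = 0.0251).

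Members that turned positive were, with median of ratios scaling (with or without the block) and then with voom, Itgal (0.0422 and 0.0421), Itgb2 (0.23 and 0.23), Itgb7 (0.35 and 0.35), Itgae (0.0379 and 0.16) and Selplg (0.0674 and 0.0683), and with quantile normalization Itgae (0.16). Leaving out single libraries, Itgb2 ran from -0.53 to 0.16, Itgb7 from -0.27 to 0.21 and Itgae from -1.23 to 1.08. Other genes that turned positive in the same way were Actn4 (0.23 and 0.23), Arhgdib (0.20 and 0.20), Msn (0.38 and 0.38), Parvg (0.35 and 0.36, and 0.0766 with quantile normalization) and Vasp (0.17 and 0.17), and Arhgdia turned to -0.0754 with quantile normalization. Without single libraries, Arhgdia ran from -0.16 to 0.34, Cd82 from -0.0699 to 0.61, Icam4 from -0.0397 to 0.77, Itgav from -0.0111 to 0.23, Msn from -0.16 to 0.12, Parvg from -0.57 to 0.39 and Rhbdf2 from -0.16 to 0.63. The cause was not tested, except that scalings between libraries move the median of all genes.

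Among the 8 lists, 2 genes were upregulated with median of ratios scaling, with or without the block, and with voom. Of the 86 tested genes, those downregulated were 6 with median of ratios scaling (beside 8.79% of all genes), 5 with quantile normalization (6.26%) and 6 with voom (9.18%). They were 19 with the replicate block (21.9%), 11 with the block and median of ratios scaling together (12.6%), and 3 to 17 without single libraries. Without a filter on low values, over 21195 genes, 7 genes of the lists were downregulated. No share of all genes is given for that fit or for the fits without a single library. The ratio of Itgal to Itgb2 differed by -0.36 to 0.0299 without single libraries, that of Itga4 to Itgb7 by -1.60 to -0.99 (-0.985) and that of Itgae to Itgb7 by -2.01 to 1.81. The replicate block changed the call of no other member than Cd44, and 3 pairs cannot give an exact two-sided p under 0.25 for a ratio. The ratio of Itga4 to Itgb1 was not run, since Itgb1 is at 0. Depth limits Itgae in replicates 1 and 2, Itga4 and the lowest Cd44 library, and 3 replicates per condition limit all results.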

Other observations

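Another alpha chain, Itgax (CD11c), chosen here after its values were seen, also differed mainly by replicate, unlike Itga6, where temperature held 86.9% of the sum of squares and the replicate number 1.14%. For Itgax these shares were 15.3% and 77.4%. It held 2.12%, 1.73% and 0.0157% of the summed alpha chain TPM in non-acclimated replicates 1, 2 and 3, and 1.04%, 0.569% and 0.0115% in cold-acclimated ones. Itgae held 0.204%, 0.0872% and 7.03% and then 0.261%, 0.121% and 6.54%. Replicate 3 was thus low in Itgax and high in Itgae at both temperatures.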
